A study of Mus musculus with 2 samples.

Results

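Arginine is taken up by leukocytes and then competed for by enzymes that send it down different routes, and 6 genes of these routes were described across the cardiac leukocytes of mice given isoproterenol (ISO). They were Slc7a2, a cationic amino acid transporter, Arg1 and Arg2, the cytosolic and the mitochondrial arginase, Nos2, the inducible nitric oxide synthase, Odc1, ornithine decarboxylase, and Sat1, spermidine/spermine N1-acetyltransferase. They are 6 of the 23946 genes counted in the series and were chosen by name with results of these libraries known, the level of Arg1 among them. All 6 had UMIs in both libraries. Every level and ratio of these genes is therefore a description, and no test was made.

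Arginase splits arginine into urea and ornithine, and nitric oxide synthase turns the same substrate into nitric oxide and citrulline. Ornithine decarboxylase makes putrescine from ornithine, the entry into spermidine and spermine, and Sat1 acetylates the last 2 so that they can be oxidized or exported. In macrophages Arg1 is a textbook gene of alternative activation and Nos2 of classical activation, and group 2 innate lymphoid cells (ILC2) are known to hold Arg1 at rest.

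The samples were CD45+ cells sorted live from the hearts of female C57BL6 mice and profiled by scRNA-Seq. The ISO library, titled TTS for Takotsubo syndrome, came from mice that received 200 mg/kg ISO, an agonist of beta-adrenergic receptors, by i.p. injection 24 hours earlier. The Control library came from mice injected with vehicle by the study's methods, although the labels state the ISO dose for both samples, so that Control was known by its title. Cells of 3 mice were pooled and 15000 were loaded per library. The age of the mice is not given in the labels. Each group is 1 library, so that no difference below has a replicate check, and intervals in parentheses are 95% intervals for counting error only.

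After the cell filters, 5641 Control and 5437 ISO cells were kept, with medians of 4790 and 8537 UMIs per cell, and 15 barcodes occurred in both libraries. Cells were gated by marker scores into macrophages (1286 Control, 2066 ISO), monocytes (132, 901), dendritic cells (48, 71), neutrophils (123, 111), ILC2 (172, 101), NK cells (402, 30), T cells (197, 26), and B cells (1853, 37). Of the markers, 11 of 11 were highest in the macrophage gate, 6 of 9 in the monocyte gate, 7 of 9 in the dendritic gate, 7 of 8 in the neutrophil gate, and 9 of 9 in the ILC2 gate. Ly6g, a defining neutrophil marker, had 0 UMIs in each of these 8 gates in both libraries, so that it does not set the neutrophil gate apart. Barcodes with markers of 2 lineages, 1177 in Control and 1064 in ISO, were kept out of the gates. So were cells between gates of a lineage, 33 in Control (0.585% of kept cells) and 456 in ISO (8.39%). Cells with a low score, 189 in Control (3.35%) and 562 in ISO (10.3%), were also left out. Shares of cells with a UMI were compared after thinning each cell to 1000 UMIs.

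Odc1 and Sat1, which open and drain the polyamine pool, had an entry in the RefSeq promoter table (GRCm38.p6), and the 250 bases before their start sites are shown. Odc1 was higher in ISO macrophages. Sat1 was lower by a log2 ratio of -0.44, but of only -0.10 relative to the median gene. The Odc1 window is chr12:17544623-17544872 on the plus strand, ending at a RefSeq start downstream of the GENCODE gene start, and the Sat1 window is chrX:155216450-155216699 on the minus strand. Capitals mark TGACG, the core of the cAMP response element TGACGTCA, searched on both strands.

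Odc1: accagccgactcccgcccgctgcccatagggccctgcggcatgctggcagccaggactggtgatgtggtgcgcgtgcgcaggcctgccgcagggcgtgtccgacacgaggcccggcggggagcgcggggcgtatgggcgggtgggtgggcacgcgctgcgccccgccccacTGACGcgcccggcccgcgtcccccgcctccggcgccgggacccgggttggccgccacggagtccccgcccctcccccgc

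Sat1: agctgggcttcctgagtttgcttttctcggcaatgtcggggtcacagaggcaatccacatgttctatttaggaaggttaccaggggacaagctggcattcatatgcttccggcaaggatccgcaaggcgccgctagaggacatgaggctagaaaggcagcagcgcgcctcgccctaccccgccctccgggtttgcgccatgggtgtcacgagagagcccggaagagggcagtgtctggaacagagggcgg

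The Odc1 window held 1 TGACG, with its first base at -79 from the start site, and the Sat1 window held 0. The GENCODE gene start of Odc1, chr12:17544794, lies within the window. By that annotation the marked TGACG begins where the gene begins, and the bases after it belong to the gene. Of 32851 windows of this length, 17.8% held TGACG on either strand. The whole element TGACGTCA, which contains TGACG and occurred in 1.55% of windows, and CACGTG, the E-box read by Myc family factors, which occurred in 6.02%, had 0 matches in both windows. The AP-1 site TGACTCA, found in 4.46% of windows, also had 0 in both. The GC box GGGCGG, found in 32.7%, had 4 matches in the Odc1 window and 2 in the Sat1 window. Arg1, Arg2, Nos2, and Slc7a2 were not found in the table.

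Slc7a2 transcripts were rare in Control cells. Control macrophages held 15 Slc7a2 UMIs, or 1.21 CPM (0.68-2.0), where CPM is the gene's UMIs over all UMIs of the gate, scaled to 1000000, and ISO macrophages held 359, or 16.4 CPM (14.8-18.2). The ISO level was 13.1-fold higher (8.09-24.4), or 3.71 on the log2 scale, and 2.75 when more barcodes were set apart as of 2 lineages (limit of 0.25). Monocytes went from 1 UMI to 116 UMIs, 1.03 to 15.7 CPM, a ratio of 10.2 with an interval of 2.69 to 608 that the lone Control UMI leaves wide. ISO neutrophils held 12 UMIs (16.2 CPM, 8.35-28.2) against 0 in Control, where the floor of 3 UMIs is 8.30 CPM and the exact interval reaches 10.2 CPM, so that the intervals overlapped. The thinned share of macrophages with Slc7a2 was 0.134% in Control and 1.46% in ISO. ILC2 had 0 Slc7a2 UMIs in Control and 1 in ISO, and B cells had 0 in both libraries. The gene lies at chr8:40862396-40922308 (plus strand, GRCm38), and Gm26584 overlaps it on the other strand.

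Arg1, at chr10:24915221-24927484 on the minus strand, differed the most of the 6 genes in macrophages. Control macrophages held 84 Arg1 UMIs (6.79 CPM, 5.42-8.41), and 16 of those lay in 1 cell. ISO macrophages held 18181 UMIs (831 CPM, 819-843). The ratio was 122-fold (98.8-153), or 6.93 on the log2 scale (6.63-7.26), with 5.90 when barcodes of 2 lineages were kept and 8.45 when more were set apart, where 15 Control UMIs remained. At 1000 UMIs per cell, 0.402% of Control macrophages (0.134-0.923) and 29.2% of ISO macrophages (27.2-31.2) had an Arg1 UMI. Unthinned, these shares were 2.26% and 55.6%.

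In Control, the level of Arg1 was highest in ILC2 among the 8 gates. ILC2 held 347 UMIs at 346 CPM (311-385), and 44.2% of the Arg1 UMIs of the library (40.7-47.8) lay in this gate of 172 cells. Barcodes of 2 lineages held 40.9% (37.4-44.4), and 232 of these 321 UMIs lay in barcodes that scored highest for macrophages. Macrophages (6.79 CPM), T cells (5.33, 1.96-11.6), NK cells (4.96, 2.14-9.77), and B cells (2.02, 1.10-3.38) followed at far lower levels. The intervals of macrophages, T cells, and NK cells overlapped, and the macrophage interval lay above that of B cells. Monocytes, dendritic cells, and neutrophils had 0 Arg1 UMIs in Control, where the floor of 3 UMIs is 3.09, 4.94, and 8.30 CPM and the exact intervals reach 3.79, 6.08, and 10.2 CPM.

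In ISO, the order of the 8 gates was headed by macrophages at 831 CPM, then ILC2 at 666 (590-749) and neutrophils at 609 (554-667), whose intervals overlapped. Monocytes at 149 CPM (141-158) and dendritic cells at 61.5 (44.0-83.8) followed. B cells, which should lack Arg1, were at 39.3 CPM (14.4-85.6) from 6 UMIs, NK cells at 20.6 (4.25-60.2) from 3 UMIs, and T cells at 0. The interval of dendritic cells overlapped that of B cells. The share of cells with Arg1 at 1000 UMIs was 2.30% in ISO B cells (0.033-13.5), with a median of 3276 UMIs, and 2.11% in dendritic cells, with a median of 8813 UMIs. The 37 B cells set no useful limit for these shares. Monocytes were at 5.98% (4.53-7.74), and neutrophils at 16.0% (9.72-24.2). Beside the 111 gated ISO neutrophils, 366 barcodes of 2 lineages had the highest score for neutrophils, with 4560 Arg1 UMIs at 940 CPM. Control had 95 such barcodes beside 123 gated neutrophils, with 16 Arg1 UMIs at 15.5 CPM. Set against the floor of 3 UMIs in Control, the ISO level was at least 48.4-fold higher in monocytes, at least 73.3-fold in neutrophils, and at least 12.5-fold in dendritic cells, and the exact intervals of these ratios began lower, at 39.3, 59.4, and 9.66. These folds depended on the gates: with macrophages gated by 5 markers, the log2 ratio was 4.81 in monocytes and 1.88 in dendritic cells, which is below the folds given. Macrophages held 51.6% of the Arg1 UMIs of the ISO library, ILC2 0.789%, and barcodes of 2 lineages 32.7%. Cells between gates held 7.43%, and cells with a low score 2.95%.

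**Figure D1:**
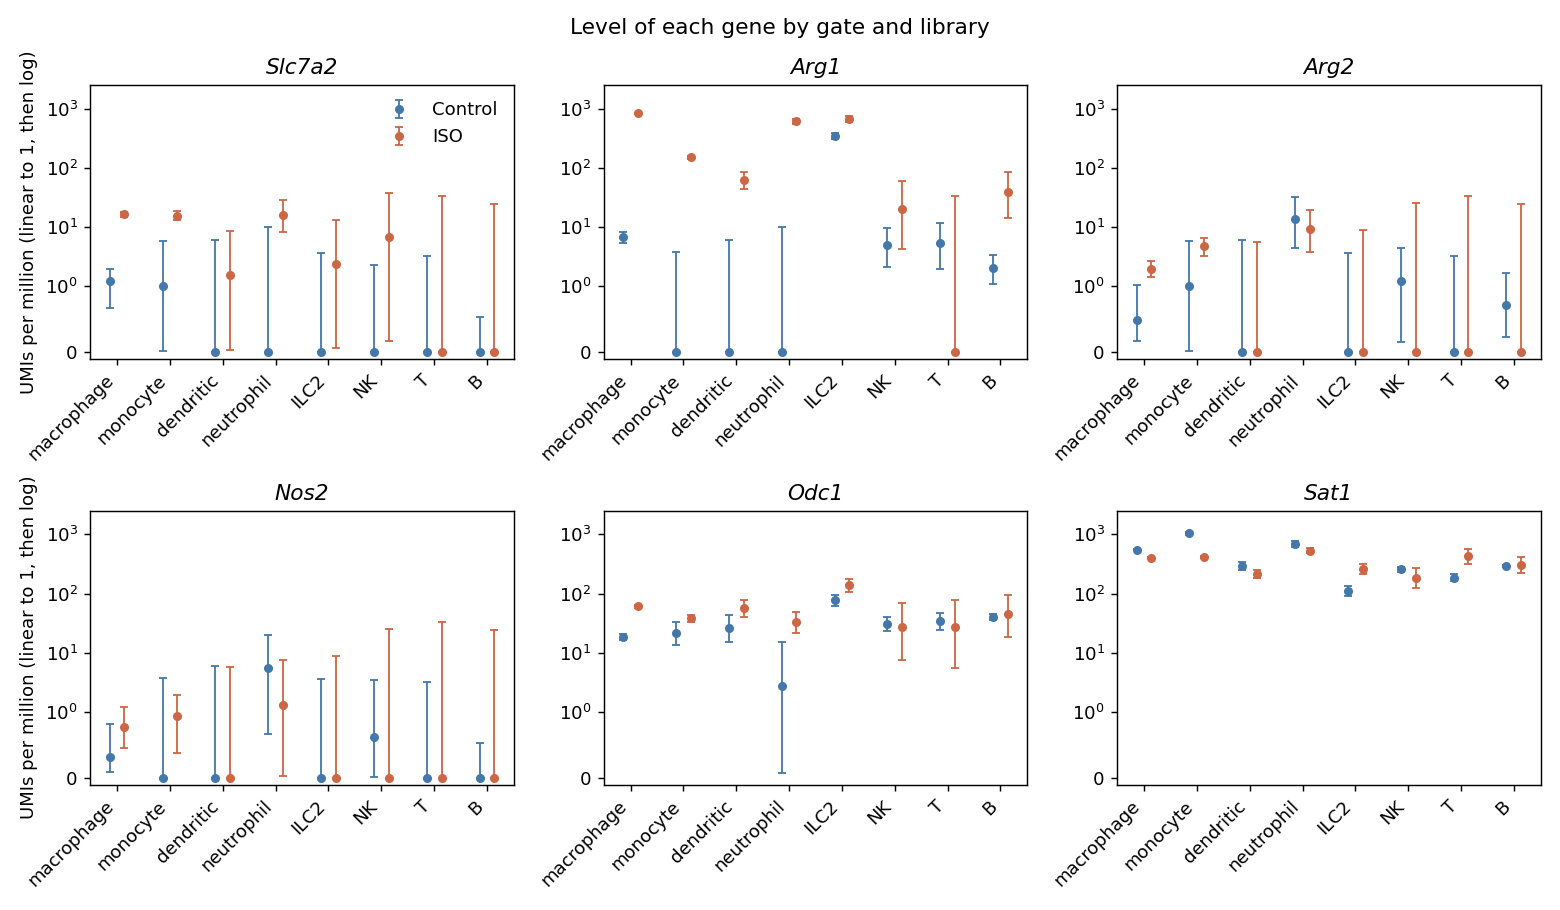
Level of each of the 6 genes by gate in Control (blue) and ISO (orange), as CPM with 95% Poisson intervals, on an axis that is linear to 1 and logarithmic above. Arg1 in Control stands high in ILC2 alone among the 8 gates, whereas in ISO it is also above 600 in macrophages and neutrophils, and Sat1 lies above 100 in every gate of both libraries.

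The difference in ILC2 was small and rested on few cells. Their level was 1.92-fold higher in ISO (1.64-2.26), but 3 of 101 ISO cells held 126 of the 278 UMIs, 45.3%, and 1 of them held 71. In Control, 4 of 172 cells with at least 10 UMIs held 51 of 347. The median ILC2 cell was at 216 CPM in Control and 281 CPM in ISO, and with each cell weighted equally the log2 ratio was 0.54 in place of 0.94. These medians are not matched for depth, as ILC2 had a median of 5556 UMIs in Control and 3530 in ISO. Unthinned, 65.7% of Control and 60.4% of ISO ILC2 had an Arg1 UMI. The thinned share was 25.2% in Control (18.9-32.4) and 31.5% in ISO (22.6-41.5), with overlapping intervals.

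Arg1 was also uneven over ISO macrophages. Of these cells, 44.4% had 0 Arg1 UMIs, the median was 111 CPM, the 90th percentile was 2596 CPM, and the highest cell reached 14260 CPM with 217 UMIs. The 499 cells with at least 10 UMIs held 88.5% of all Arg1 UMIs of the gate. In ISO monocytes the concentration was stronger, as 81.7% of cells were at 0 and the top 10% held 93.2% of the UMIs. Of 111 ISO neutrophils, 68.5% were at 0, and 12 cells held 84.3% of the UMIs.

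**Figure D2:**
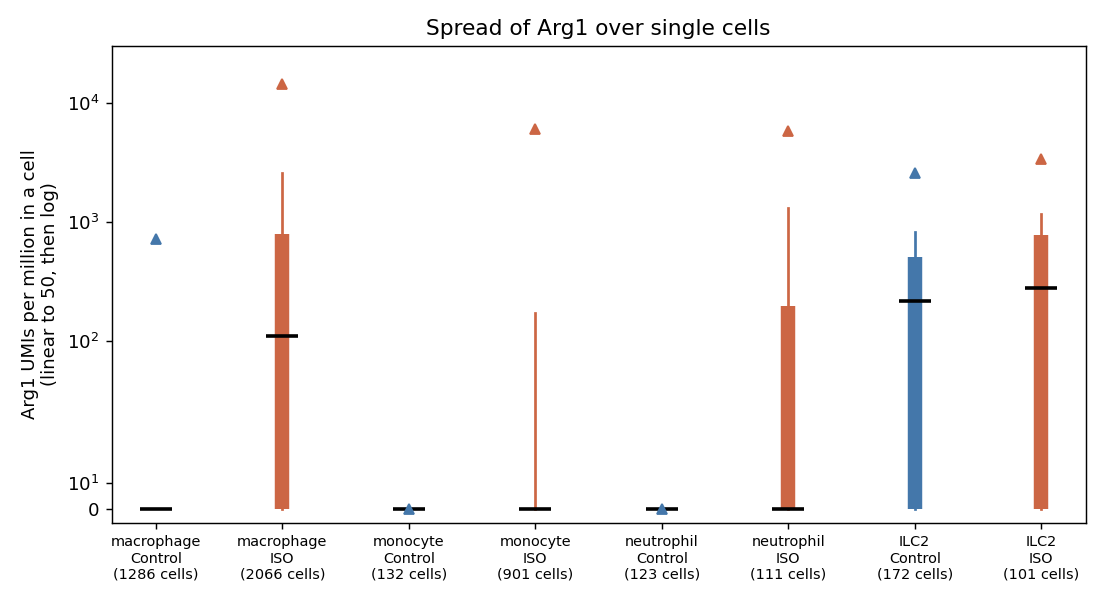
Arg1 per cell by gate and library, as CPM on an axis that is linear to 50 and logarithmic above. Thick bars span the 25th to 75th percentile, thin lines the 10th to 90th, black marks are medians, and triangles the highest cell. The median lies above 0 in ISO macrophages and in ILC2 of both libraries, and at 0 in the other groups drawn.

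Macrophages were divided by resident markers (Timd4, Lyve1, Folr2) and by Ccr2, the chemokine receptor of recruited monocytes. Cells with resident markers and no Ccr2 numbered 486 in Control and 126 in ISO, and Ccr2 cells without resident markers 144 and 1414. In ISO, Arg1 stood at 925 CPM (909-940) in Ccr2 macrophages and at 71.8 CPM (55.2-91.8) in resident-marker macrophages, an interval that overlaps that of ISO B cells. Of the 126 ISO resident-marker cells, 84.9% had 0 Arg1 UMIs, and 2 cells held 39 of the 63 UMIs. In Control, the levels were 7.35 CPM (3.91-12.6) and 2.12 CPM (0.97-4.02). The cells with both or neither kind of marker were at 9.76 CPM in Control and 714 CPM in ISO. Odc1 went from 20.9 to 65.3 CPM in Ccr2 macrophages, a log2 ratio of 1.62 (1.17-2.16), and from 15.1 to 27.3 CPM in resident-marker macrophages, a log2 ratio of 0.88 (0.12-1.56). Sat1 was 573 and 562 CPM in resident-marker macrophages, a log2 ratio of -0.03 (-0.17 to 0.11), and 485 and 378 CPM in Ccr2 macrophages, a log2 ratio of -0.36 (-0.46 to -0.25).

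Outside macrophages, transcripts that are abundant in macrophages stood beside Arg1 in ISO. The 11 macrophage markers summed to 15340 CPM in Control and 6745 CPM in ISO macrophages, and to 648 and 1170 CPM in neutrophils, where 11 of 11 had UMIs in both libraries. In monocytes the sum was 1507 and 1904 CPM, in ILC2 118 and 302 CPM, and in B cells 151 and 374 CPM. Mertk was at 0 in ISO ILC2, and Ms4a7, C1qc, and Mertk were at 0 in ISO B cells. In ISO neutrophils thinned to 1000 UMIs, those with an Arg1 UMI carried 7281 CPM of Spp1, which encodes osteopontin, 4310 CPM of Fn1, which encodes fibronectin, and 42870 CPM of summed neutrophil markers. Those without carried 1856, 836, and 78860 CPM. The former also had more UMIs per cell before thinning, a mean of 10857 against 5898. With the stricter limit for barcodes of 2 lineages, 12 ISO neutrophils were left, and their Arg1 level was 204 CPM (97.7-375) from 10 UMIs in 3 cells.

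In ISO ILC2, cells with an Arg1 UMI carried 688 CPM of Spp1, 432 CPM of Fn1, and 273 CPM of summed macrophage markers, against 214, 180, and 130 CPM in those without.

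The ratio of Arg1 to Spp1 UMIs in ISO was higher in ILC2 than in the other gates. It was 10.9 Arg1 UMIs per 100 Spp1 UMIs in macrophages (10.69-11.02), 8.49 in monocytes (7.98-9.03), 13.4 in neutrophils (12.1-14.8), and 15.6 in barcodes of 2 lineages with the highest score for neutrophils (15.1-16.1). ILC2 had 79.0 (67.2-92.7), dendritic cells 26.7 (18.3-38.0), B cells 4.0 (1.45-8.91), and NK cells 1.10 (0.23-3.26). Control ILC2 held 347 Arg1 UMIs beside 1 Spp1 UMI. The part of macrophage transcripts in the Arg1 of neutrophils, monocytes, dendritic cells, and ILC2 was not tested.

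**Figure D3:**
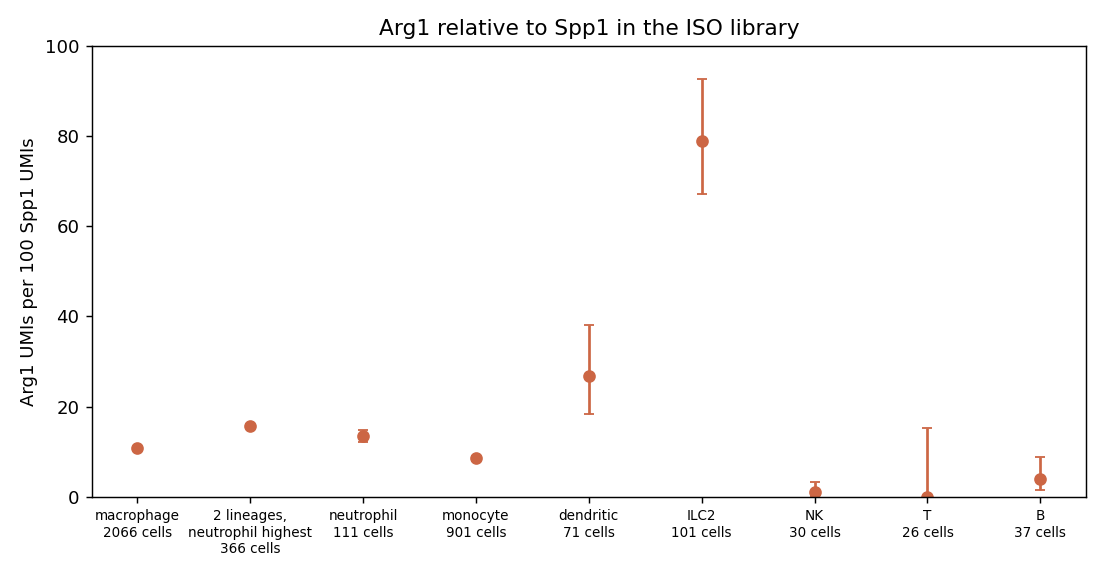
Arg1 UMIs per 100 Spp1 UMIs by gate in the ISO library, with 95% intervals. Macrophages, monocytes, neutrophils, and barcodes of 2 lineages lie between 8.49 and 15.6, and ILC2 lie at 79.0.

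Arg2, the mitochondrial arginase at chr12:79130777-79156301 on the plus strand, stayed near the detection limit. Macrophages held 6 Arg2 UMIs in Control (0.49 CPM, 0.18-1.06) and 43 in 40 cells in ISO (1.97 CPM, 1.42-2.65), a log2 ratio of 1.92 (0.78-3.54). Neutrophils were at 13.8 CPM (4.49-32.3) from 5 UMIs in Control and at 9.43 CPM (3.79-19.4) from 7 UMIs in ISO, and both intervals lay above those of macrophages of the same library. Monocytes held 1 and 35 UMIs, the latter at 4.74 CPM (3.30-6.59). ILC2 and dendritic cells had 0 in both libraries. Vti1b and Gm48780 overlap Arg2 on the other strand, and whether counting used strand is not given in the sources used here.

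Nos2, at chr11:78920787-78960254 on the plus strand, was hardly detected. Macrophages held 4 UMIs in Control (0.32 CPM, 0.09-0.83) and 17 UMIs in 7 cells in ISO (0.78 CPM, 0.45-1.24). The log2 ratio was 1.14 with an interval of -0.35 to 3.29, so that a difference was not detectable at this depth. Monocytes held 0 and 7 UMIs, neutrophils 2 and 1, and dendritic cells, ILC2, T cells, and B cells 0 in both libraries.

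Odc1, the first enzyme of polyamine synthesis at chr12:17544794-17551505 on the plus strand, was found in every gate. In macrophages it went from 230 UMIs (18.6 CPM, 16.3-21.2) to 1339 UMIs (61.2 CPM, 57.9-64.5), 3.29-fold higher (2.86-3.80). The thinned share was 1.48% in Control (0.90-2.30) and 5.25% in ISO macrophages (4.33-6.30), and Control B cells, at a median of 3255 UMIs against 7260 in macrophages, were at 3.60%. In Control, macrophages thus stood below B cells (40.3 CPM, 35.7-45.3), and in ISO they stood above Control B cells, whereas ISO B cells had a wide interval (45.9 CPM, 18.4-94.5). ILC2 held the highest Odc1 level in both libraries, at 76.8 CPM (60.6-96.0) and 139 CPM (105-180), a log2 ratio of 0.86 (0.34-1.36). Monocytes went from 21.6 to 38.1 CPM, a log2 ratio of 0.79 (0.18-1.53), and dendritic cells from 26.4 to 56.9 CPM, a log2 ratio of 1.08 (0.23-2.06). Neutrophils held 1 Odc1 UMI in Control and 25 in ISO (33.7 CPM), with a ratio of 8.27 (1.99-499). The small RNA gene Gm22748 overlaps Odc1 on the same strand.

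Sat1, at chrX:155213132-155216449 on the minus strand, was abundant in both libraries and did not follow the other members. It was 548 CPM (535-561) in Control and 405 CPM (397-414) in ISO macrophages, a log2 ratio of -0.44 (-0.48 to -0.39). The median log2 ratio of the 13279 genes compared in macrophages was -0.34, and relative to it Sat1 was at -0.10. Monocytes went from 1046 CPM (983-1112) to 416 CPM (402-431), a log2 ratio of -1.33 (-1.43 to -1.22) beside a median of -0.21 over all genes. Thinned shares of monocytes were 57.1% (48.2-65.7) and 29.6% (26.6-32.7). Some markers of the monocyte gate also differed between the libraries. In this gate, Ace went from 285 to 19.4 CPM, Spn from 283 to 26.7 CPM, and Chi3l3 from 507 to 6966 CPM. Ly6c2 was at 800 and 715 CPM. Neutrophils went from 684 to 525 CPM (-0.38, -0.61 to -0.14 on the log2 scale) and dendritic cells from 295 to 214 CPM (-0.46, -0.79 to -0.14). ILC2 went the other way, from 110 CPM (90.2-132) to 256 CPM (210-310), a log2 ratio of 1.22 (0.82-1.62), as did T cells, from 186 CPM (162-213) to 429 CPM (316-569). B cells differed by less than the counting error, at 289 CPM (276-302) and 308 CPM (226-410). The thinned share was 9.60% in Control and 18.8% in ISO ILC2, and 24.3% and 28.1% in B cells. The ISO level in ILC2 was thus not above that of ISO B cells, with overlapping intervals, and Control B cells held Sat1 as well.

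In macrophages, 5 of the 6 genes were at least 2-fold higher in ISO and 0 were at least 2-fold lower, where 7.82% of all 13279 genes with at least 20 UMIs were 2-fold higher and 24.2% were 2-fold lower. Nos2 is among the higher genes although the interval of its log2 ratio included 0. In monocytes, 3 of the 5 members with enough UMIs were 2-fold higher, beside 8.48% of all genes, and 1 was 2-fold lower, beside 16.0%. In ILC2, 1 of 3 members, Sat1, was 2-fold higher, beside 8.41% of all genes, and 0 were 2-fold lower, beside 6.01%. As the members were chosen from these contrasts, nothing is read from these counts.

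Co-detection per cell was computed in ISO macrophages at 1000 UMIs, averaged over all possible thinning draws, which gives fractional cell numbers. Of cells with an Arg1 UMI, 6.82% (4.94-9.13) also had Odc1, against 4.61% (3.59-5.81) of the others. Both genes were found in 1.99% of cells, where the product of their shares is 1.53%, and the log2 odds ratio was 0.61 (0.03-1.18). Slc7a2 was found in 2.36% (1.30-3.91) of Arg1 cells and 1.09% (0.62-1.76) of the others, a log2 odds ratio of 1.14 (0.11-2.16). Sat1 was found in 27.9% (24.3-31.6) and 29.8% (27.5-32.3), a log2 odds ratio of -0.14 (-0.44 to 0.17). Arg1 cells had a mean of 11739 UMIs before thinning and the others 10123. Arg2 and Nos2 were too rare, at under 5 cells each, to say whether they met Arg1 in the same cells. In Ccr2 macrophages alone, the log2 odds ratio was 0.46 (-0.20 to 1.13) for Odc1 and 1.16 (-0.02 to 2.35) for Slc7a2, and both intervals included 0. These odds ratios are weak in sparse counts and describe 1 library. In ILC2, Odc1 was found in 4.31% of Control Arg1 cells and 6.99% of the others, a log2 odds ratio of -0.49 (-2.60 to 1.63), and in 9.30% and 12.5% in ISO (-0.35, -2.24 to 1.55).

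Within ISO macrophages, cells with more Arg1 held more Spp1 and Hif1a and less C1qa and H2-Ab1, while the intervals of Odc1 and Sat1 overlapped. Cells with 0, 1, 2, and 3 or more Arg1 UMIs of 1000 had Odc1 at 50.7, 72.2, 81.0, and 77.2 CPM, and the interval of the last (45.4-123) overlapped that of the first (39.9-63.7). Slc7a2 was at 11.4 (6.62-18.4), 17.8, 21.8, and 39.3 CPM (17.9-74.8). Sat1 was at 446 (413-482), 398, 389, and 402 CPM (324-494). Slc7a2 thus had its highest value where Arg1 was counted most, with intervals that overlap at their ends. Spp1 went from 5397 to 13540 CPM and Hif1a, the oxygen-regulated subunit of hypoxia-inducible factor 1, from 229 (205-255) to 424 CPM (344-518). C1qa, a complement gene of mature macrophages and 1 of the gate's markers, went from 1783 to 520 CPM, H2-Ab1, an MHC class II gene, from 1534 to 392 CPM, and Lyve1 from 114 to 8.45 CPM. Spp1, C1qa, H2-Ab1, and Lyve1 were added by hand to the list genes shown here.

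**Figure D4:**
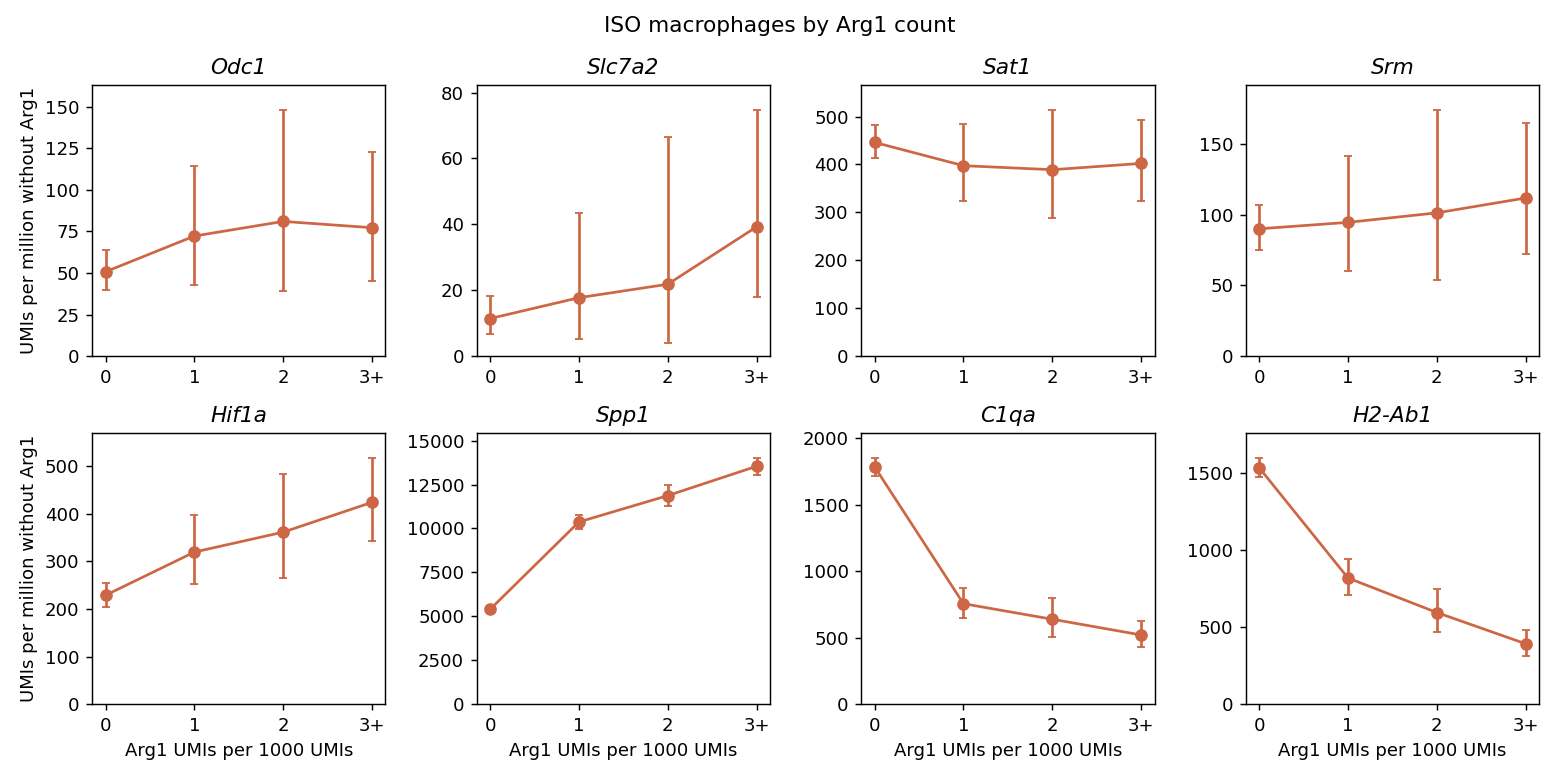
Level of 8 genes in ISO macrophages by the number of Arg1 UMIs among 1000 drawn UMIs, averaged over all draws, as CPM without Arg1 with 95% Poisson intervals. Intervals of Odc1, Sat1, and Srm overlap from end to end, whereas Hif1a and Spp1 stand higher and C1qa and H2-Ab1 lower where Arg1 is counted 3 or more times.

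The genes most like Arg1 were ranked by Pearson correlation. Over the 16 gate-by-library levels (8 gates in 2 libraries, 3594 genes ranked), these were Hilpda (r = 0.91), a lipid droplet protein gene induced in hypoxia, Pdpn (0.81), podoplanin, Lif (0.80), a cytokine of the interleukin 6 family, Slc7a8 (0.79), a neutral amino acid transporter, and Gm17056 (0.77). Hilpda, like Arg1, was high in ILC2, at 869 CPM in Control and 2162 CPM in ISO, and went from 58.6 to 476 CPM in macrophages. Odc1 (0.69) and Slc7a2 (0.67) were lower, Arg2 (0.08) and Nos2 (-0.01) near 0, and Sat1 (-0.34) below 0. Over the 2066 ISO macrophages (7033 genes ranked), these were Fn1 (0.51), Spp1 (0.49), Ctsl (0.42), which encodes the lysosomal protease cathepsin L, Pdpn (0.40), and Ccl2 (0.37), a ligand of Ccr2. Slc7a2 ranked 123 (0.15), Odc1 141 (0.14), and Sat1 5604 (-0.03). The points share library, depth, and gate, and the correlations are descriptions.

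The other genes of arginine and polyamine metabolism were read from 12 lists with 58 genes, the 6 members included. Of 53 genes with at least 20 UMIs in macrophages, 13 were at least 2-fold higher and 6 at least 2-fold lower in ISO. Over all 13279 genes, 7.82% were higher and 24.2% lower. The median log2 ratio was 0.07 beside -0.34 over all genes. Of the 39 metabolic genes among them, 12 were higher and 4 lower, with a median of 0.39. Both counts of higher genes include 5 of the 6 members, which were chosen from these contrasts. Relative to the median gene, 18 of the 53 were 2-fold higher and 2, Gatm and Slc18b1, were 2-fold lower. Of all 13279 genes, 1845 were then higher and 2136 lower in place of 1039 and 3217.

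In arginine supply, 2 of 5 transport genes were higher, Slc7a2 and Slc7a6, a transporter of cationic and neutral amino acids (1.23, 0.89-1.598 on the log2 scale). Slc7a1, the widely used cationic transporter, was at 20.4 and 34.0 CPM (0.74, 0.53-0.95). Ass1, argininosuccinate synthase, which rebuilds arginine from citrulline, went from 11.6 to 54.6 CPM (2.24, 1.99-2.50), and its partner Asl was at 40.5 and 51.9 CPM.

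Of the nitric oxide genes, Nos2 was counted as 2-fold higher from 4 and 17 UMIs, with a log2 interval that included 0 (-0.35 to 3.29). Ddah2, which clears methylarginine inhibitors of nitric oxide synthase, went from 21.3 to 8.73 CPM (-1.29, -1.57 to -1.02). Gch1, which makes the cofactor tetrahydrobiopterin, was at 82.0 and 126 CPM. Nos1 had 0 UMIs, and Nos3 had 2 and 3.

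Beyond arginase, ornithine can go to proline, and Aldh18a1, which makes the proline precursor from glutamate, went from 5.66 to 15.3 CPM (1.42, 1.06-1.82). Oat, ornithine aminotransferase, was at 82.2 and 80.2 CPM. Of the genes that control Odc1, Oaz2, an antizyme that directs ornithine decarboxylase to the proteasome, went from 28.8 to 12.3 CPM (-1.23, -1.46 to -0.99), Oaz1 from 607 to 383 CPM (-0.66, -0.71 to -0.62), and the antizyme inhibitor Azin1 was at 109 and 128 CPM.

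In polyamine synthesis, Srm, spermidine synthase, went from 15.4 CPM to 98.9 CPM (2.68, 2.46-2.90), while Sms, spermine synthase (19.1 and 18.8 CPM), and Amd1, S-adenosylmethionine decarboxylase (19.4 and 16.9 CPM), were not 2-fold apart. Smox, spermine oxidase, which turns spermine back to spermidine, went from 29.3 to 88.9 CPM (1.602, 1.44-1.77). Eif5a, the protein that carries the spermidine-derived residue hypusine, went from 311 to 1004 CPM (1.69, 1.64-1.74), and Dohh, which completes hypusine, from 32.1 to 68.9 CPM (1.10, 0.94-1.27), with Dhps, the enzyme before it, at 30.9 and 31.6 CPM. Gatm, which draws arginine into creatine, had the lowest ratio among the list genes with at least 50 UMIs, from 178 to 31.1 CPM (-2.51, -2.64 to -2.39).

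Of 8 regulators known for Arg1, Hif1a was higher (62.3 to 265 CPM, 2.09, 1.98-2.20) and Epas1, which encodes HIF-2alpha, lower (5.34 to 2.47 CPM, -1.11). Stat6, which relays interleukin 4 signals, was at 76.2 and 67.0 CPM, and Cebpb, a transcription factor that acts on Arg1, at 1348 and 2432 CPM (0.85, 0.83-0.88). The transcription factors Stat3 and Klf4, also in this list, went the other way. Stat3 was at 301 and 178 CPM (-0.76, -0.83 to -0.70), and Klf4 at 365 and 218 CPM (-0.75, -0.805 to -0.69). The median log2 ratio of the 8 regulators was -0.12. Of 6 regulators known for Nos2, 0 were 2-fold higher and Irf1, an interferon-induced transcription factor, was lower, from 200 to 95.4 CPM (-1.07, -1.15 to -0.98), where 24.2% of all genes were 2-fold lower. Relative to the median gene, 0 of these 6 were 2-fold lower.

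**Figure D5:**
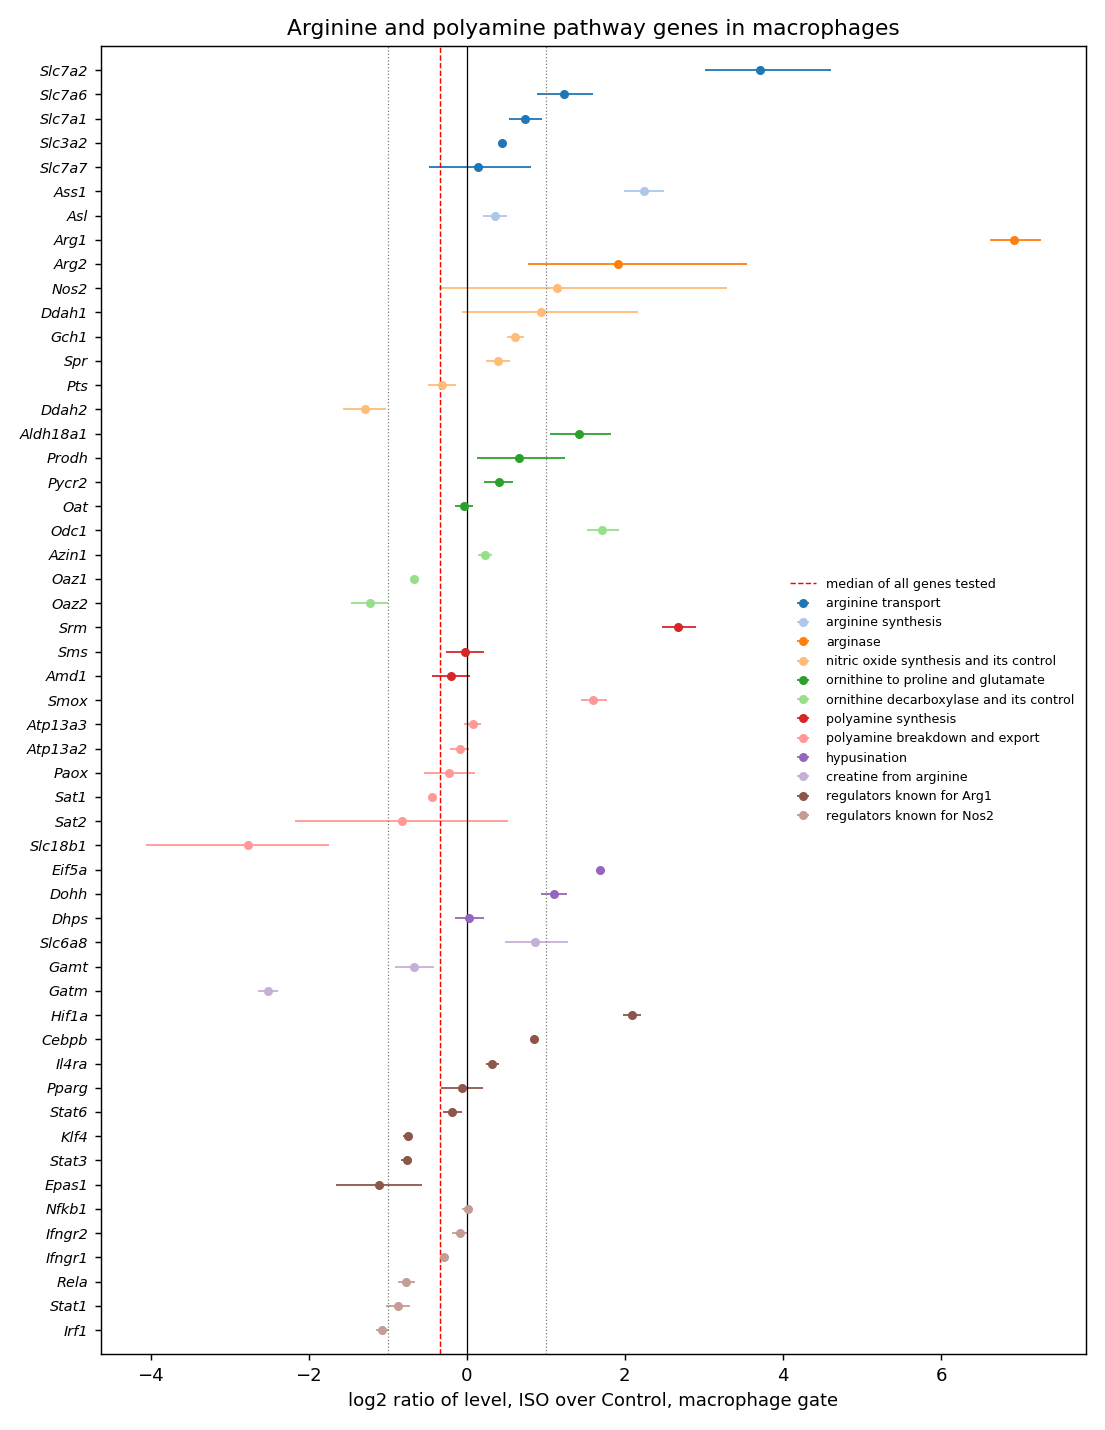
Log2 ratio of ISO over Control in the macrophage gate for the 53 list genes with at least 20 UMIs, coloured by list, with 95% counting intervals, dotted lines at 2-fold, and a red dashed line at the median of all genes (-0.34). Arg1 (6.93), Slc7a2 (3.71), and Srm (2.68) lie farthest right, and Slc18b1 (-2.77), from 36 and 9 UMIs, and Gatm (-2.51) farthest left.

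In monocytes, 9 of 48 list genes were at least 2-fold higher and 8 lower, beside 8.48% and 16.0% of all genes, so that the share of lower genes was near the background. The count of higher genes includes 3 members, Arg1, Arg2, and Slc7a2, which were chosen from these contrasts. It also includes Slc7a7 and Ddah2, with 0 UMIs in Control. The intervals of Arg2, Slc7a7, and Ddah2 included 0, and nothing is read from the count of higher genes. Among the higher genes, Srm went from 10.3 to 56.1 CPM (2.38, 1.55-3.52), Smox from 46.3 to 158 CPM (1.75, 1.34-2.23), and Eif5a from 424 to 928 CPM (1.13, 0.99-1.28). Among the lower genes, Oaz2 went from 45.3 to 16.8 CPM (-1.44, -1.94 to -0.90), Sms from 30.9 to 14.6 CPM (-1.09, -1.67 to -0.44), and Pparg, a lipid-sensing nuclear receptor, from 56.6 to 6.09 CPM (-3.21, -3.82 to -2.62). Klf4, a transcription factor of monocytes, went from 484 to 186 CPM (-1.38, -1.53 to -1.23). Pparg and Klf4 are among the 8 regulators known for Arg1. Of these 8, 3 were 2-fold lower in ISO monocytes and 1, Hif1a, was higher, with a median log2 ratio of -0.71. These ratios compare gates whose own markers, such as Ace and Spn, differed between the libraries. In ILC2, 3 of 39 list genes, Sat1, Smox, and Hif1a, were 2-fold higher and 0 lower, and 2 of the 25 metabolic genes were higher, shares near the 8.41% of all genes.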

How the data were processed

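CD45+ heart cells of 1 Control and 1 ISO library were profiled on the 10x Genomics 3' platform. Per the labels and the study's methods, UMI-tools 1.0.0 handled barcodes and UMIs, STAR 2.7.3a mapped the reads to mm10, and featureCounts 1.6.4 assigned them to genes. The values the authors deposited are raw UMI counts per gene and barcode, 47382455 and 58495112 UMIs in total, with no normalization. The annotation and strand setting of the counting are not given in the sources used here. Gene positions come from GENCODE M21.

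Cells with over 500 and under 6000 genes and under 25% mitochondrial UMIs were kept, as in the methods. A gate's score was the mean, over its markers, of log1p(UMIs per 10000) divided by the 95th percentile of cells with a UMI. Cells needed a score of at least 0.2 and a lead of 0.05 over the next gate of their lineage, and barcodes whose best score for another lineage was at least 0.5 of their highest were set apart as of 2 lineages (0.25 in an alternative). This stands in for doublet removal, and no doublet caller was run. Within 0.02 of a limit lay 211 of 2066 ISO macrophages, 120 of 901 ISO monocytes, and 18 of 71 ISO and 8 of 48 Control dendritic cells. Levels are CPM of summed UMIs with exact Poisson intervals, log2 ratios add 0.5 UMI and carry conditional exact binomial intervals, and shares have Clopper-Pearson intervals. Thinning to 1000 UMIs left out 14 Control cells and 0 ISO cells. UMIs are counted once per molecule, and the intervals cover counting error only. With 1 library per group no test was made.

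Named genes were the 6 members, list genes with at least 50 UMIs and a 2-fold ratio in macrophages, and the 5 genes most like Arg1 by each measure (at least 100 CPM in 1 level, or found in at least 10% of cells). Other list genes are given for contrast and were named after their values were seen. The members and lists were chosen with earlier results of these data known. The steps were tested on simulated data. Alternatives set beforehand numbered 9 and covered gates, 2-lineage barcodes, B cell background, cell weights, scaling, thinning, cell filters, and depth, and 3 were added after seeing the data. Python 3.11.15, numpy 2.4.6, scipy 1.17.1, pandas 2.3.3, and matplotlib 3.10.9 were used.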

Additional observations from a re-analysis of the deposited data

Results flagged for a closer look

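Sat1 differed between the libraries in opposite directions in ILC2 and monocytes, by a log2 ratio of 1.22 (0.82-1.62) in ILC2 and of -1.33 (-1.43 to -1.22) in monocytes, which is why it is listed. The difference was not tested, as each gate has 1 library per group. The markers of the monocyte gate, Ace and Spn among them, also differed between the libraries. The ILC2 ratio was 0.71 when barcodes of 2 lineages were kept, 1.37 with cells weighted equally, and 1.38 at the 2-lineage limit of 0.25. The level in ISO ILC2 was 256 CPM (210-310), with an interval that overlapped that of ISO B cells, 308 CPM (226-410). Control B cells held Sat1 as well, at 289 CPM.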

How the results depend on the processing

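No paired analysis was possible because each group is 1 library, and for the same reason no replicate could be left out. Of the ratios whose interval lay on 1 side of 0, none changed direction under the alternatives that gave a value. For the members in macrophages, Arg1 in ILC2, and the co-detection, 59 alternative values stayed within the counting interval and 18 moved outside it. The log2 ratio of Arg1 in macrophages, 6.93, was 5.90 with barcodes of 2 lineages kept, 7.37 less the B cell level, 7.47 with cells weighted equally or, which is the same on average, thinned, 7.27 centred on the median gene, 7.36 without the 5% of cells with the most UMIs, and 8.45 with the 2-lineage limit at 0.25, an alternative added after seeing the data. That of Odc1, 1.72, was 1.49 with barcodes of 2 lineages kept and 2.06 when centred. That of Sat1, -0.44, was -0.37 with those barcodes, -0.60 with 5 macrophage markers, -1.42 less the B cell level, and -0.10 when centred. That of Arg1 in ILC2, 0.94, was 1.27 with those barcodes, 0.54 with cells weighted equally or thinned, and 0.50 at 0.25. The cause of these shifts was not tested. For Sat1, the B cell level subtracted was 289 CPM in Control, from 2005 UMIs, and 308 CPM in ISO, from only 47 UMIs. How much of that level is background was not tested, so that the Sat1 value less it is not read as a correction. The fitted Arg1 ratio, 8.18 in monocytes and 6.24 in dendritic cells with 0 Control UMIs, was 4.81 and 1.88 when macrophages were gated by 5 markers. Macrophage values of Arg2 ranged from 1.55 to 2.66, of Nos2 from 0.10 to 1.73, and of Slc7a2 from 2.75, at the limit of 0.25, to 4.05. The Arg1 and Odc1 odds ratio ranged from 0.55 to 1.05, and its highest values, 0.98 and 1.05, were single thinning draws. Genes 2-fold higher in macrophages numbered 1039, or 1813 with at least 1 UMI and 828 with at least 100, and genes 2-fold lower 3217, or 6712 with at least 1 UMI and 1827 with at least 100. The ratio less the B cell level could not be computed where a level was at or below that of B cells: Arg2 and Odc1 in macrophages, Arg1 and Odc1 in monocytes, neutrophils, and dendritic cells, and Sat1 in dendritic cells and ILC2. Outside macrophages, the dendritic gate by subset scores, also added later, held 513 ISO cells and Arg1 at 153 CPM against 61.5 CPM. Depth limits Arg2 and Nos2, with 6 and 4 UMIs in Control macrophages.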
